A study of Mus musculus with 16 samples.

Results

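The gene expression response to lipopolysaccharide (LPS) was examined in mouse dendritic cells that had developed in high-salt medium. The comparison set the 4 microarrays of LPS-stimulated cells grown at 450 mOsm/L (group 450_LPS) against the 4 microarrays of unstimulated cells grown at 450 mOsm/L (group 450), which are 8 of the 16 arrays of the study, and took every probe set that names a single gene, 20646 of 22549. Cells were grown from bone marrow of C57BL/6 mice, with no other genotype named, in medium with 10 ng/mL granulocyte-macrophage colony-stimulating factor (GM-CSF). In both groups NaCl raised the osmolarity to 450 mOsm/L from day 3, and cells were harvested on day 7 and plated for 6 h more, either without LPS or with 10 ng/mL LPS. The other 2 groups, 290 and 290_LPS, came from the same 4 mice and had the same GM-CSF and the same 6 h without or with LPS in medium of 290 mOsm/L; they served here only to ask where the LPS response at 450 mOsm/L differed. Each mouse gave 1 culture to each group, the replicate number is the mouse number, and no sorting of the cultured cells is described in the labels.

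LPS is a component of the outer membrane of Gram-negative bacteria. It is sensed by Toll-like receptor 4 (Tlr4) with its partners Ly96 and Cd14; the adaptor Myd88 leads to NF-kB and MAP kinases and to inflammatory cytokines, and the adaptor Ticam1 leads to type I interferon, which then acts through its receptor on the same cells to switch on interferon-stimulated genes. Dendritic cells that sense LPS mature: they raise costimulatory molecules and Ccr7, move their metabolism towards glycolysis, and stop taking up antigen. High extracellular NaCl is a separate stimulus that cells answer with the transcription factor Nfat5 and with transporters for organic osmolytes.

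LPS changed the expression of most genes that passed the filter on low levels in high-salt cells. Of 10236 such genes, 7348 (71.8%) passed limma's test at a Benjamini-Hochberg adjusted p under 0.05, 2707 (26.4%) higher and 4641 (45.3%) lower with LPS, and the 4 arrays with LPS did not overlap the 4 without for 6776 genes (66.2%). Counts of genes that rose or fell in each list below are to be read against these shares. With no filter, 3132 of 19272 genes were higher and 4955 lower. With so many calls, the size of a change separates genes more than its call does: 767 genes rose at least 2-fold and 617 fell at least 2-fold, 279 rose and 58 fell at least 4-fold, and 43 rose and 0 fell at least 16-fold. Over all genes the median change was -0.09 on the log2 scale, and counts of small changes depend on how arrays are put on one scale: 36.8% of the calls were higher in the deposited scaling and 50.4% after cyclic loess, which moved that median to 0.03. All changes are differences of log2 RMA values (450_LPS minus 450); levels are log2 RMA values, where 6.83, the median of all values in the table, was the level a gene had to pass in at least 4 arrays to be tested.

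Arrays of a group were much closer to each other than to those of the other group, and the unstimulated arrays were the more spread. The standard deviation of the difference between 2 arrays over genes was 0.14 to 0.22 within group 450 and 0.13 to 0.16 within group 450_LPS. Between the 2 groups it was 0.81 to 0.84, and array medians lay between 6.79 and 6.93. Array 450 replicate 4 had the lowest median correlation with its group, 0.990 against up to 0.996, and without it 2758 genes were higher and 4621 lower. Of the 12 dendritic cell markers tested, the integrin Itgax and the MHC class II genes H2-Aa, H2-Ab1, H2-Eb1 and Cd74 were at mean levels of 11.41 to 13.66 in both groups. Lower means in 450 and 450_LPS were those of Flt3 (6.10 and 6.28), Zbtb46 (6.92 and 7.48) and Batf3 (7.20 and 7.13). Cd209a and Xcr1 did not pass the filter. Among the 14 macrophage markers tested, Csf1r was at 13.21 and 12.25 and C1qb at 12.96 and 12.64 in 450 and 450_LPS. The lowest of the 14 in group 450 were Vsig4, at 6.55 and 5.74, Timd4, at 6.26 and 7.85, and Marco, at 7.74 and 10.40. All the remaining macrophage markers tested had means in group 450 from 9.52 (Fcgr1) to 12.77 (Cd68).

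The largest rise was that of Il6, the inflammatory cytokine interleukin-6. Its level was 4.77, 4.50, 4.71 and 4.40 in the 4 arrays without LPS and 12.42, 12.43, 12.35 and 12.25 with LPS. That is a change of 7.77 (SE 0.09, adjusted p = 6.9e-21, limma), from a level below the filter to near the top of the measured range, which ended at 14.32. Next came Il12b, the p40 subunit of interleukins 12 and 23 (change 6.69), and Nos2, the inducible nitric oxide synthase (6.50). The means of these 3 genes without LPS, 4.60, 6.35 and 6.74, were below the filter level, so no fold is given. The 15 largest risers were these 3 and Ifi205, Ch25h, Cxcl10, Il10, Gbp5, Iigp1, Lcn2, Slfn4, Ptgs2, Il1b, Slamf1 and Cd40, with changes from 5.95 down to 4.96. They cover inflammatory cytokines, interferon-induced genes and enzymes that make nitric oxide, prostaglandins and 25-hydroxycholesterol. Among them Ch25h, Gbp5 and Il10 also had means below the filter level without LPS. Falls were smaller. Ccr2, the chemokine receptor that draws monocyte-derived cells to Ccl2, was at 11.70, 11.54, 11.26 and 10.84 without LPS and at 7.64, 7.75, 7.16 and 7.51 with it, a change of -3.82 (SE 0.16, adjusted p = 2.3e-13). The other 14 largest fallers ran from Tmem154 (-3.74) and Cd28 (-3.50), best known as a T-cell costimulatory receptor, through the phosphatidate phosphatase Lpin1 (-3.40), the potassium channel Kcnj2 (-3.30) and the G-protein regulator Rgs2 (-3.11) to Cd300lb (-2.58). The mean of Cd28 with LPS, 6.28, was below the filter level. In bulk RNA, fewer cells that express a gene and less of its RNA per cell cannot be told apart.

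**Figure D1:**
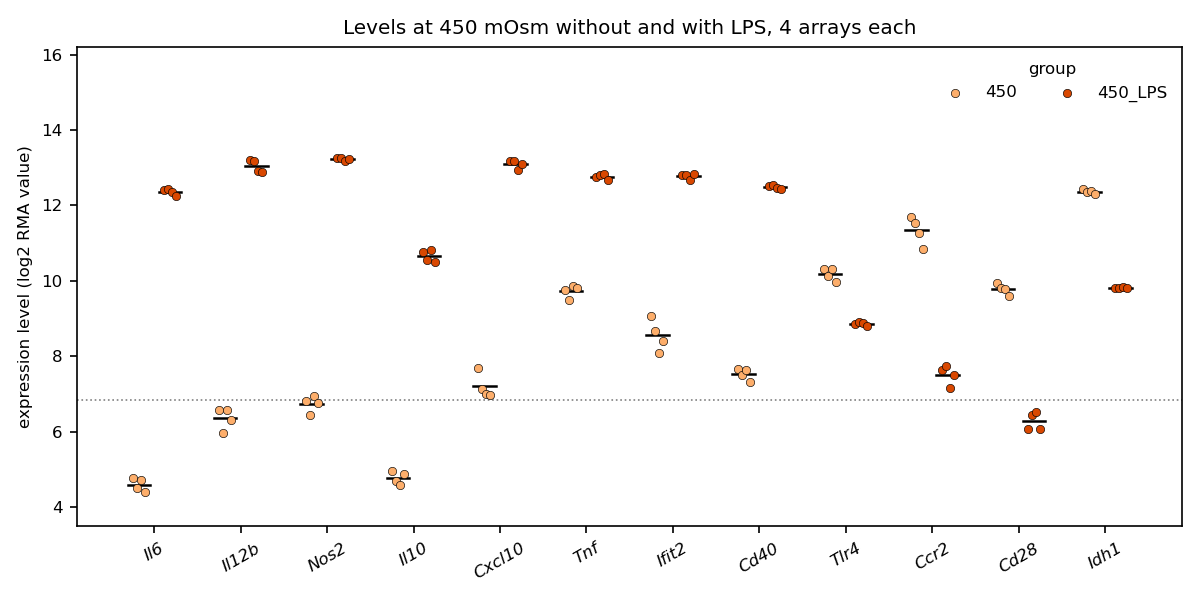
Expression levels (y axis, log2 RMA value) of 12 genes in the 4 arrays of group 450 (light points) and the 4 of group 450_LPS (dark points); black bars are group means and the dotted line is the filter level of 6.83. For each gene shown the groups do not overlap, as for 66.2% of all genes tested: Il6 lies at 4.40 to 4.77 without LPS and 12.25 to 12.43 with it, and Ccr2 at 10.84 to 11.70 and 7.16 to 7.75.

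The promoters of 4 genes that rose are printed as examples of windows with matches to the sites of the factors named above; they were picked with their matches in view, and most windows of genes that rose at least 2-fold hold no match to a given motif. The motifs searched, on both strands of the 250 bases before each start site in RefSeq's promoter table (build GRCm38.p6), were GGGANNTNC for NF-kB, GAAANNGAA for the interferon response element core, TGANTCA for AP-1 and TTCNNNGAA for STAT factors. Each sequence runs 5′ to 3′ on the strand of its gene, and capitals mark the matches; the 2 NF-kB matches in Cxcl10 nearest the start overlap each other, and no match overlaps a match to another motif. Il6 (chr5:30012864-30013113, plus strand) holds 1 NF-kB match 44 bases before the start and 1 AP-1 match, Cxcl10 (chr5:92348890-92349139, minus strand) 3 NF-kB matches, 1 interferon match and 1 AP-1 match, Nfkbia (chr12:55492648-55492897, minus strand) 3 NF-kB matches and 1 interferon match, and Ifit3 (chr19:34583279-34583528, plus strand) 3 interferon matches and 1 AP-1 match.
Il6: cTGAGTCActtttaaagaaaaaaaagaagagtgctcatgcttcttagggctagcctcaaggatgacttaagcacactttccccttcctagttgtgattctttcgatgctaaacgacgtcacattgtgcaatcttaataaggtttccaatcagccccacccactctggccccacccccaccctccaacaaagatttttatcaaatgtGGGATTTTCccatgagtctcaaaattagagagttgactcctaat
Cxcl10: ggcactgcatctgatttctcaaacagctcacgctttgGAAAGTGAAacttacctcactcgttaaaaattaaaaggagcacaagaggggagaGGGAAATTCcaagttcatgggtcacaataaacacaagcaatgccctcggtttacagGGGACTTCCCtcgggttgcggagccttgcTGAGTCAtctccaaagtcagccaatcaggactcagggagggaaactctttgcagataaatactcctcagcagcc
Nfkbia: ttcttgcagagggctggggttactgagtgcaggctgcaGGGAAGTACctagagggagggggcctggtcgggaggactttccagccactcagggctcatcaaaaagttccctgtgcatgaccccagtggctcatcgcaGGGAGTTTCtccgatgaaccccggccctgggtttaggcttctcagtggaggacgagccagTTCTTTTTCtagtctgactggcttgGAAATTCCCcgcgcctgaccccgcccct
Ifit3: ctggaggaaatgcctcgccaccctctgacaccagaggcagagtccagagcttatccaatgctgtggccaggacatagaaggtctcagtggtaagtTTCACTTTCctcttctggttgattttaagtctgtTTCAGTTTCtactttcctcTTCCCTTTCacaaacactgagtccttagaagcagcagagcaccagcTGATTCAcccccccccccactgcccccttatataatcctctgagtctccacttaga

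Over the whole table, 12.5% of 32851 promoter windows held an NF-kB match, 7.13% an interferon match, 6.75% an AP-1 match and 7.02% a STAT match. Of the 10236 genes tested, 8250 matched the table by gene ID, with 10489 windows, of which 14.1%, 6.27%, 4.57% and 5.85% held the 4 motifs in the same order. Among the 770 windows of genes that rose at least 2-fold the shares were 17.3%, 12.1%, 7.92% and 8.18%. Among the 690 windows of genes that fell at least 2-fold they were 13.2%, 4.64%, 6.38% and 5.22%. The 255 windows of genes that rose at least 4-fold had shares of 20.4%, 19.6%, 13.3% and 8.24%. An NF-kB match was in 11 of 22 windows of the NF-kB genes described next, and an interferon match in 10 of 25 windows of the interferon-stimulated genes. The other motifs were also more frequent there than over the tested genes. In the NF-kB genes the interferon, AP-1 and STAT shares were 13.6%, 27.3% and 18.2%. In the interferon-stimulated genes the NF-kB, AP-1 and STAT shares were 16%, 20% and 20%. These shares describe letters in fixed windows; a match is no site, and its absence says nothing of the factor.

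At the receptor, LPS lowered Tlr4 itself in high-salt cells. Its level was 10.31, 10.14, 10.30 and 9.98 without LPS and 8.85, 8.90, 8.87 and 8.80 with it, a change of -1.33 (SE 0.08, adjusted p = 7.8e-11). The groups did not overlap, which was so for 66.2% of all genes. The co-receptor Cd14 rose by 0.67 and the adaptor Myd88 by 1.01, the ubiquitin ligase Traf6 by 0.95 and the kinase Ikbke by 0.87. Of 18 tested genes of Tlr4 recognition and its adaptors 9 rose and 5 fell, with a median change of 0.31. The fall of Tlr4 was larger than at 290 mOsm/L, where it changed by -0.41 (difference of the responses -0.91, SE 0.12, adjusted p = 2.3e-05), and the rise of Cd14 was smaller than its rise of 1.36 there (difference -0.68, adjusted p = 1.5e-05). Over all genes this difference of responses passed the test for 2161 (21.1%), with 1097 (10.7%) higher at 450 mOsm/L and 1064 (10.4%) lower, and of the 18 genes 3 were among the higher and 8 among the lower.

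NF-kB subunits and the inhibitors that NF-kB induces rose together. Of 17 tested, 16 rose and 0 fell, with a median change of 1.53. Nfkbia, the inhibitor that returns NF-kB to the cytoplasm, was at 10.94, 10.91, 10.91 and 10.99 without LPS and 12.79, 12.76, 12.68 and 12.72 with it (change 1.80, SE 0.09, adjusted p = 2.2e-12). Tnfaip3, the ubiquitin-editing enzyme A20 that stops signalling at the receptor complex, rose from 9.02, 8.90, 9.02 and 9.03 to 12.16, 12.18, 12.03 and 12.10. Its change of 3.12 (SE 0.10) was larger than the change of 1.82 at 290 mOsm/L (difference 1.30, SE 0.14, adjusted p = 4.1e-06); the level reached with LPS was 12.12 at 450 and 11.72 at 290 mOsm/L, from 8.99 and 9.90. Nfkbiz, an atypical inhibitor that works with NF-kB at secondary genes, rose by 2.82, and the subunit gene Nfkb2 by 2.11 and the inhibitor gene Nfkbib by 2.07.

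Of 19 AP-1, ATF and immediate-early factors 9 rose and 5 fell, and their median change of 0.02 turned to -0.01 without 450_LPS replicate 2. Ier3 (2.60), Batf2 (2.59) and Batf (2.35) rose and Egr2 fell by 1.54, 6 h after LPS was added. For 10 of the 19 the response was higher at 450 than at 290 mOsm/L and for 3 it was lower. The MAP kinase phosphatases, which switch off ERK, p38 and JNK, mostly rose, 9 of 12 with a median of 0.78, and 3 fell. Dusp16 rose by 2.26, and Dusp1, at 10.38, 10.51, 10.41 and 10.64 without LPS and 12.19, 12.14, 12.14 and 12.24 with it, by 1.69 (SE 0.10). Dusp1 rose by 0.74 at 290 mOsm/L (difference 0.95, SE 0.14, adjusted p = 6.1e-05), and Dusp3 fell by 1.49 at 450 mOsm/L.

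Interferon-stimulated antiviral genes rose without exception among those tested: 29 of 29, by a median of 2.47. Cmpk2, a mitochondrial nucleotide kinase, rose by 4.69, the GTPases Mx2 and Mx1 by 4.49 and 4.26, and Ifit2, which binds viral RNA, by 4.23. The level of Ifit2 was 9.06, 8.66, 8.08 and 8.41 without LPS and 12.81, 12.81, 12.68 and 12.83 with it (SE of the change 0.13, adjusted p = 4.6e-15). All 9 interferon-induced GTPases tested rose too, with a median of 3.29, led by Gbp5 (5.67) and Iigp1 (5.58), proteins that attack the vacuoles of intracellular microbes. Upstream of them, 13 of 17 genes of interferon production and signalling rose and 1 fell (median 0.86): Irf7, the factor that amplifies interferon production, rose by 3.55, the RNA sensors Ifih1 and Ddx58 by 2.82 and 2.21 and the kinase Jak2 by 2.48. Ifnb1, the interferon-beta gene, was below the filter level and was not tested.

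Most of the antiviral genes rose less at 450 than at 290 mOsm/L. The rise was smaller at 450 than at 290 mOsm/L for 27 of the 29 antiviral genes and larger for 0 (median difference -0.74), against 10.4% of all genes with a lower response, and the response was lower for 6 of the 9 GTPases (higher for 0) and for 8 of the 17 production and signalling genes (higher for 2). For all 27 the mean level without LPS was higher at 450 than at 290 mOsm/L, by a median of 0.68, whereas with LPS 13 were higher and 14 lower and the median difference was -0.06. The response difference equals the difference between the osmolarities with LPS minus that without, so such levels of genes picked by it, here and below, are a description only. Irf7 shows the arrangement. It was at 9.54, 9.37, 9.02 and 9.27 in the 450 arrays and 12.84, 12.89, 12.81 and 12.87 in the 450_LPS arrays; its mean was 8.26 in group 290 and 12.87 in 290_LPS, so the levels with LPS met while those without did not. The difference between its responses was -1.06 (SE 0.14, adjusted p = 3.7e-05), and that of Ifit2 was -1.29 (SE 0.18, adjusted p = 6.5e-05). Rtp4 had the most negative difference among the antiviral genes, -1.97 (SE 0.15, adjusted p = 6e-08): its mean rose from 7.86 to 11.27 at 290 mOsm/L and from 9.65 to 11.09 at 450 mOsm/L. Among genes that rose at least 2-fold at 450 mOsm/L, an interferon match stood in 40 of 178 promoter windows (22.5%) of those whose response was smaller than at 290 mOsm/L and in 16 of 231 windows (6.93%) of those whose response was larger. In the same order the shares were 12.4% and 5.63% for the STAT motif, 10.1% and 8.66% for AP-1, and 18% and 16.5% for NF-kB. These 2 sets were formed from the arrays themselves, so the shares are given without a test.

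Inflammatory cytokines and growth factors rose in 16 of 16 cases, by a median of 3.05. After Il6 and Il12b came Il1b (5.07), which the inflammasome activates, Il33 (4.65), an alarmin of the same family, and Tnf. Tnf was at 9.75, 9.49, 9.86 and 9.81 without LPS and 12.76, 12.81, 12.83 and 12.66 with it, a change of 3.04 (SE 0.14, adjusted p = 1.3e-12). The groups did not overlap, which was so for 66.2% of all genes. At 290 mOsm/L the changes were 7.62 for Il6, 4.91 for Il1b and 2.21 for Tnf, and the differences for Il6 (0.14, SE 0.12) and Il1b (0.16, SE 0.23) did not pass the test. The difference for Tnf, 0.83, passed the test with all mice (adjusted p = 0.0064) but not without mouse 2 (adjusted p = 0.084), and that for Il12b, 0.71, passed with all mice (adjusted p = 0.024) but not without mouse 1 (0.094), 2 (0.086) or 4 (0.106), without 450 replicate 2 (0.053) or without 450_LPS replicate 1 (0.052). Il33 stood apart. It was at 4.81, 4.93, 4.67 and 4.86 without LPS, below the filter level, and 9.73, 9.74, 8.95 and 9.45 with it. Its means of 4.67 and 6.79 in 290 and 290_LPS were also below that level, so the difference between its changes, 2.53 (SE 0.28, adjusted p = 4.8e-06), rests on low values in 3 of the 4 groups.

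Genes that restrain inflammation rose as well, 15 of 18 with a median of 1.53, while 2 fell. The level of Il10, the anti-inflammatory cytokine, was 4.96, 4.70, 4.58 and 4.87 without LPS and 10.76, 10.55, 10.81 and 10.51 with it (change 5.88, SE 0.12, adjusted p = 1.8e-17). The change at 290 mOsm/L was 4.39, less by 1.49 (SE 0.16, adjusted p = 4.1e-06). The levels of Il10 without LPS at 450 mOsm/L were below the filter level, so this difference rests in part on low values. Il1rn, the antagonist of the interleukin-1 receptor, rose by 2.48 at 450 and by 0.90 at 290 mOsm/L (difference 1.58, SE 0.10, adjusted p = 1.1e-08), and at 450 mOsm/L Socs3, which blocks signalling from cytokine receptors, rose by 4.16. Responses were higher at 450 mOsm/L for 6 of the 18 genes and lower for 2 (4 after quantile normalization). Cd274, which encodes PD-L1, rose by 1.66.

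Chemokine genes rose in 18 of 20 cases. Of 11 CC chemokines 10 rose and 1 fell (median 2.58), and of 9 CXC chemokines 8 rose and 1 fell (median 3.02). Ccl2 and Ccl7, which attract monocytes, were at means of 7.55 and 6.79 without LPS and 12.07 and 11.42 with it. Their changes of 4.52 and 4.63 were larger than at 290 mOsm/L by 2.16 (SE 0.19) and 1.70 (SE 0.14), with adjusted p of 3.8e-07 and 2.1e-07. Cxcl10, a ligand of the T-cell receptor Cxcr3, was at 7.69, 7.14, 7.00 and 6.97 without LPS and 13.18, 13.18, 12.94 and 13.11 with it (change 5.90, SE 0.17). Cxcl9, a second ligand of that receptor, changed by 4.68 at 450 and 5.71 at 290 mOsm/L (difference -1.03, SE 0.11, adjusted p = 3.2e-06). Its means without LPS, 5.70 in 450 and 5.62 in 290, were below the filter level. Ccl17, made by mature dendritic cells, was at 11.88, 12.06, 10.67 and 10.60 in the 450 arrays and 13.34, 13.40, 13.19 and 13.23 in the 450_LPS arrays. It was the least even of these genes before LPS, and its change of 1.99 (SE 0.30) was smaller than the 4.10 at 290 mOsm/L (difference -2.11, SE 0.43, adjusted p = 0.0015).

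Receptors and migration genes changed in both directions, with 10 of 20 genes higher, 7 lower and a median change of 0.42. Fscn1, which bundles actin in dendrites, rose by 3.87, Marcksl1 by 3.71 and Ccr7, the receptor that leads dendritic cells to lymph nodes, from 9.10, 9.59, 9.16 and 9.27 to 12.04, 12.15, 12.19 and 12.24 (change 2.88, SE 0.13, adjusted p = 4.6e-13). Ccr2 fell more at 450 than at 290 mOsm/L, where its change was -2.52 (difference -1.30, SE 0.23, adjusted p = 0.0004).

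Costimulation and maturation genes rose in 17 of 19 cases and fell in 1, with a median of 2.73. The level of Cd40, through which T cells license dendritic cells, was 7.66, 7.50, 7.65 and 7.33 without LPS and 12.52, 12.55, 12.46 and 12.45 with it, a change of 4.96 (SE 0.07, adjusted p = 1.8e-19). The B7 molecules Cd80 and Cd86 rose by 3.10 and 2.73. Cd80 rose less, by 2.03, at 290 mOsm/L (difference 1.06, SE 0.09, adjusted p = 2.1e-07); for Cd86 the difference of 0.40 missed the threshold (adjusted p = 0.093) and passed it with the mouse as a block (0.035), with array weights (0.0495) or without mouse 3 (0.021). Slamf1, a homotypic adhesion receptor, rose by 5.02 and by 3.09 more than at 290 mOsm/L (SE 0.18, adjusted p = 2.6e-09), and the activation marker Cd69 rose by 4.69, which was 1.36 less (SE 0.24, adjusted p = 0.00047). The means of Cd69 without LPS, 6.19 in 450 and 6.08 in 290, were below the filter level.

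Genes of MHC class I presentation mostly rose, while the median class II gene changed little. Of 16 class I genes 12 rose and 3 fell, with a median of 1.13; Tap1, the peptide transporter, rose by 2.24, Nlrc5, the transcriptional activator of class I genes, by 2.16 and the immunoproteasome subunits Psmb10 and Psmb9 by 1.75 and 1.67. The rise of Nlrc5 was 1.05 smaller than at 290 mOsm/L (SE 0.10, adjusted p = 8.9e-07). Of 12 class II genes 2 rose and 9 fell, against 26.4% and 45.3% of all genes. Their median was -0.18, little below the median of all genes. Under the alternatives 6 to 9 of those tested fell, 1 to 3 rose, and the median was -0.29 to -0.13. H2-Aa and H2-Ab1 fell by only 0.15 and 0.10, and the change of Cd74, -0.06, did not pass. Ciita, the activator of class II genes, was at 10.76, 10.66, 10.53 and 10.48 without LPS and 9.64, 9.80, 9.68 and 9.40 with it (change -0.98, SE 0.10, adjusted p = 7.7e-08), and the peptide exchanger H2-DMa fell by 0.89.

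Genes of nitric oxide, arginine and itaconate metabolism rose in 7 of 8 cases and fell in 1 (median 1.75). Nos2 went from 6.81, 6.44, 6.94 and 6.76 to 13.26, 13.27, 13.19 and 13.24, and the arginine transporter Slc7a2 rose by 2.54. Acod1, the enzyme that makes itaconate, rose by 1.90 (SE 0.18) to levels of 13.70 to 13.73, near the top of the range, and by 3.05 at 290 mOsm/L to a mean of 13.82 (difference -1.16, SE 0.26, adjusted p = 0.003). Among 12 prostaglandin and leukotriene genes 5 rose and 7 fell, with a median of -0.62. Ptgs2, the inducible cyclooxygenase, rose by 5.33 and the prostaglandin E synthase Ptges by 3.70, which was 1.00 more than at 290 mOsm/L. Hpgds, which makes prostaglandin D, fell by 1.74. Alox5, the first enzyme of leukotriene synthesis, was at 9.10, 9.17, 8.55 and 8.65 without LPS and 7.15, 7.28, 7.03 and 7.15 with it. Its fall of 1.71 exceeded its change at 290 mOsm/L, -0.43 (difference -1.28, SE 0.16, adjusted p = 1.6e-05).

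**Figure D2:**
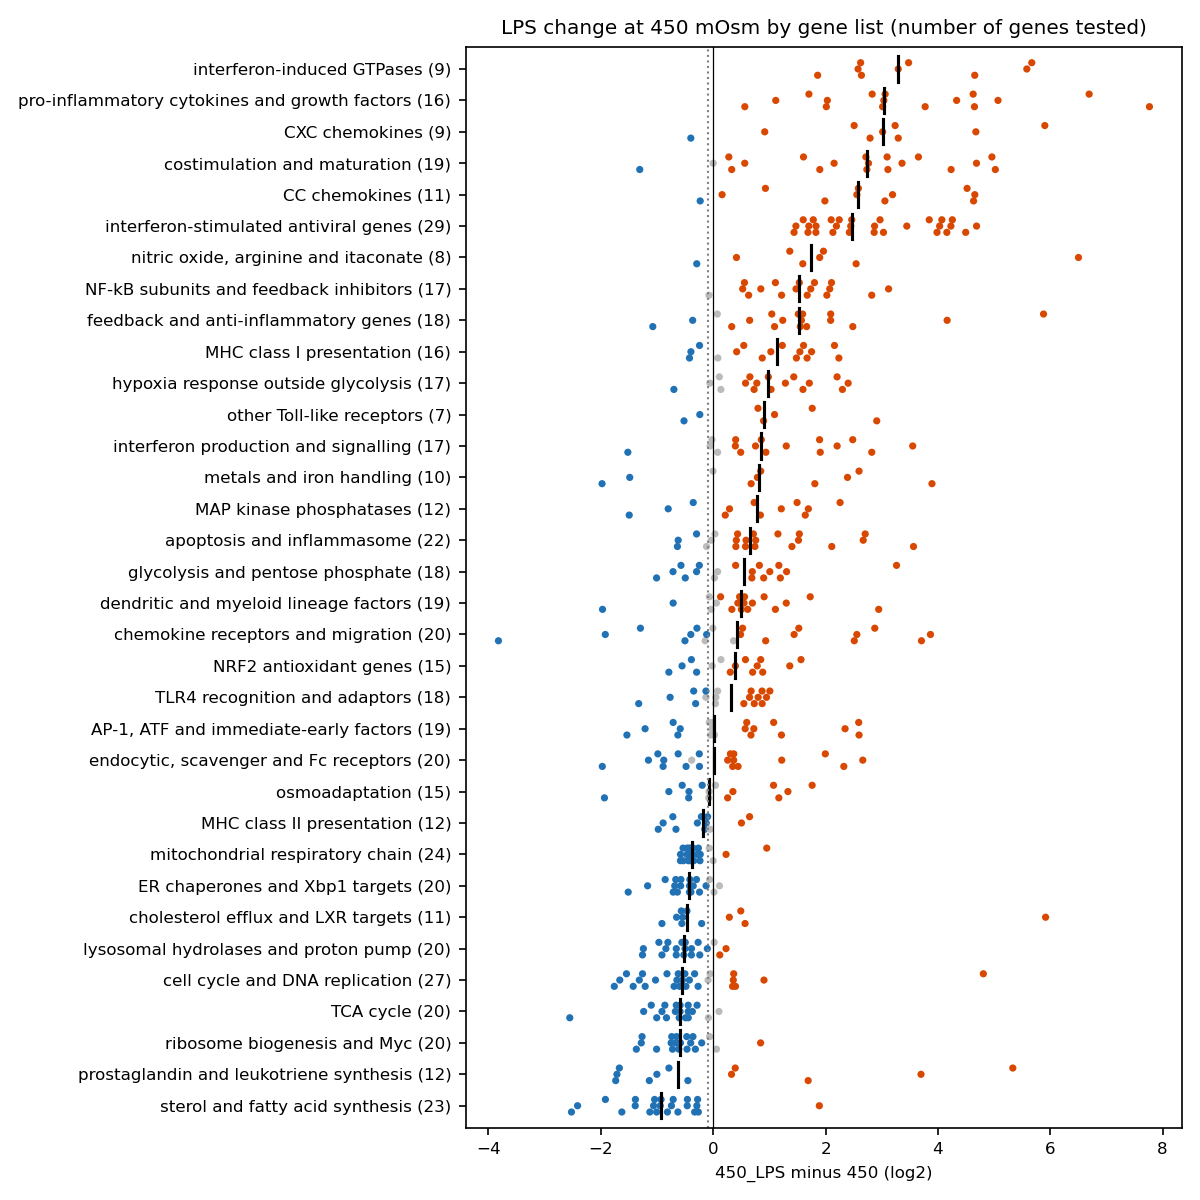
LPS change at 450 mOsm/L (x axis, log2 of 450_LPS minus 450) of the tested members of 34 gene lists, 1 point a gene; orange points rose and blue points fell at an adjusted p under 0.05 (limma), and grey points did not pass. Black bars are list medians, from 3.29 for the interferon-induced GTPases to -0.93 for sterol and fatty acid synthesis, and the dotted line is the median of all genes, -0.09.

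Glycolysis and hypoxia genes had more rises than falls with LPS at 450 mOsm/L. Of 18 glycolysis and pentose phosphate genes 10 rose and 6 fell (median 0.54), against 6 that rose and 10 that fell at 290 mOsm/L (median -0.17); the rises at 450 mOsm/L were led by Pfkfb3 (3.26), which makes the activator of phosphofructokinase. Hk2, the inducible hexokinase, was at 9.90, 9.87, 9.84 and 10.02 without LPS and 11.46, 11.23, 10.97 and 11.20 with it (change 1.31, SE 0.08). The glucose transporter Slc2a1 rose by 1.17 (SE 0.10) at 450 mOsm/L and fell by 0.52 at 290 mOsm/L (difference 1.69, SE 0.14, adjusted p = 1.7e-07). For 10 of the 18 the response was higher at 450 mOsm/L, against 10.7% of all genes, and for 0 it was lower (1 with the replicate block or the mouse as a random term, after quantile normalization, with trended variance or array weights, and without 450 replicate 3 or 450_LPS replicate 2). Ldha, lactate dehydrogenase A, was at 12.67, 12.70, 12.63 and 12.82 and then 12.85, 12.76, 12.74 and 12.78, and its change of 0.08 did not pass the test; it was -0.03 after quantile normalization, and passed after cyclic loess (0.14), median centring (0.13) or without 450 replicate 4 (0.12).

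The hypoxia list outside glycolysis, targets and regulators of the factor Hif1a, held 17 genes tested. Of these 13 rose and 1 fell with LPS (median 0.98), against 7 and 6 at 290 mOsm/L (median 0.05), and 13 had a higher response than at 290 mOsm/L and 0 a lower (median difference 0.98). Hilpda, a lipid-droplet protein, was at 6.94, 7.04, 7.25 and 7.19 without LPS and 9.84, 9.36, 9.31 and 9.51 with it. It rose by 2.40 (SE 0.10) here and fell by 0.41 at 290 mOsm/L (difference 2.82, SE 0.14, adjusted p = 4.8e-10). Bnip3, a mitophagy receptor, rose by 2.21 and the oxygen sensor Egln3 by 2.30, exceeding their changes at 290 mOsm/L by 1.75 and 1.26. The means of Egln3 without LPS, 6.02 in 450 and 6.19 in 290, were below the filter level. For Vegfa, the endothelial growth factor, the called change was at 290 mOsm/L: its level at 450 mOsm/L was 9.58, 9.58, 9.76 and 9.84 without LPS and 10.26, 9.73, 9.61 and 9.72 with it, a change of 0.14 that did not pass (adjusted p = 0.27) and was -0.01 without 450_LPS replicate 1, -0.04 without mouse 1, and 0.27 (adjusted p = 0.037) after cyclic loess. At 290 mOsm/L it fell from a mean of 9.78 to 7.81 (difference 2.11, SE 0.15, adjusted p = 3.5e-08). The 13 genes with a higher response had a median difference between the osmolarities of -0.09 without LPS and 1.06 with LPS, and all 13 were higher at 450 mOsm/L with LPS.

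**Figure D3:**
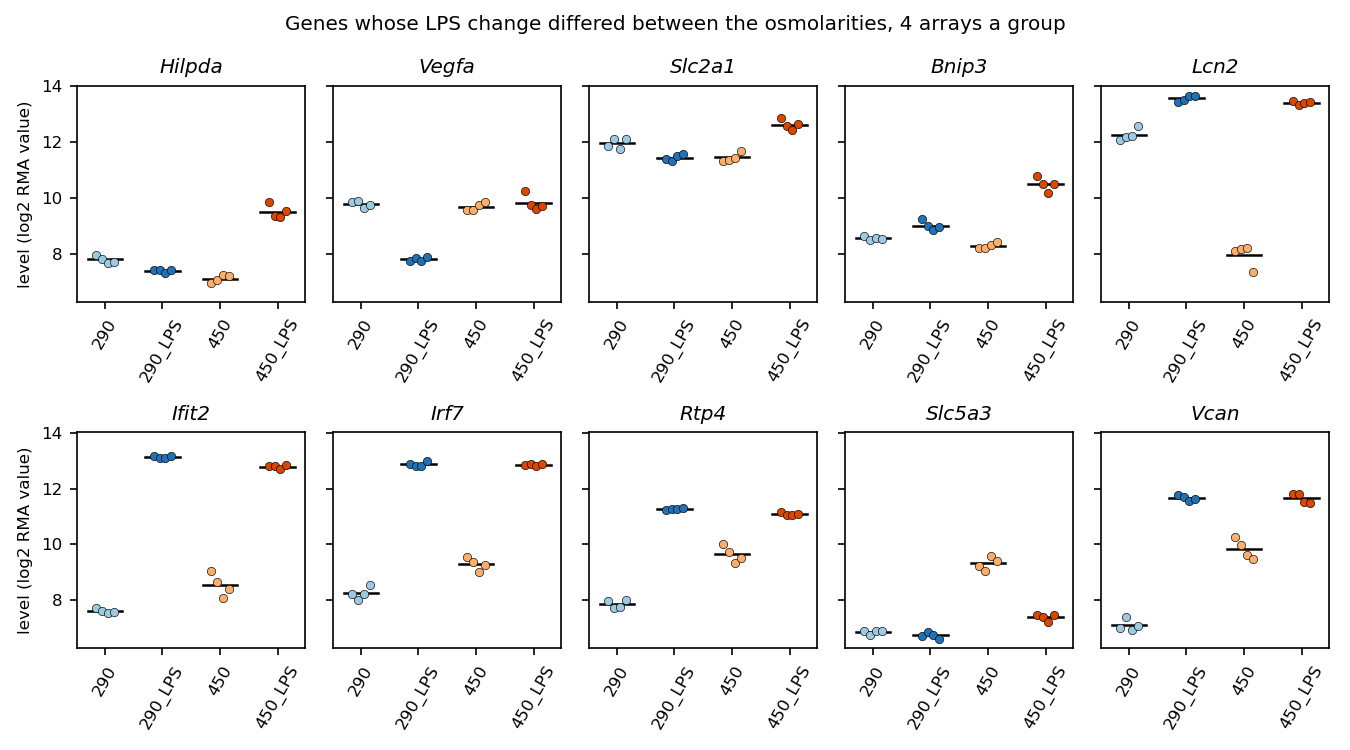
Levels (y axis, log2 RMA value) of 10 genes in the 4 arrays of each of the 4 groups, with group means as black bars. Hilpda, Slc2a1 and Bnip3 were highest in 450_LPS; Vegfa had means of 9.78 and 7.81 in 290 and 290_LPS; Lcn2 started at a mean of 7.96 in 450 and 12.27 in 290; Ifit2, Irf7, Rtp4 and Vcan started higher in 450 than in 290; Slc5a3 fell with LPS in 450 and had means of 6.86 and 6.74 in 290 and 290_LPS.

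Mitochondrial genes were lower. Of 20 genes of the TCA cycle 0 rose and 18 fell (median -0.60), and of 24 respiratory chain genes 2 rose and 20 fell (median -0.38). Over all genes 26.4% rose and 45.3% fell. At 290 mOsm/L 17 of the TCA genes and 19 of the respiratory chain genes fell as well. Idh1, which is listed with the cycle although its enzyme is cytosolic and makes NADPH, fell furthest: 12.43, 12.36, 12.38 and 12.29 without LPS against 9.81, 9.80, 9.84 and 9.80 with it (change -2.55, SE 0.07, adjusted p = 8.1e-16). That fall was 0.86 larger than at 290 mOsm/L (SE 0.10, adjusted p = 5.5e-06). Of the other genes on the list, Fh1, fumarate hydratase, fell by 1.24, Idh3a by 1.10 and Idh2 by 1.01. Of the respiratory chain the largest falls were those of the complex I genes Ndufb5, Ndufs1 and Ndufb8, by 0.58, 0.58 and 0.54, and cytochrome c (Cycs) rose by 0.95. After cyclic loess, the scaling that raised the median of all genes most, 1 TCA gene rose and the TCA median was -0.49; 1 rose after median centring too.

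Sterol and fatty acid synthesis had the lowest list median, -0.93, with 22 of 23 genes lower, against 45.3% of all genes. The desaturase Fads1 was at 10.61, 10.56, 10.58 and 10.62 without LPS and 7.87, 8.09, 8.14 and 8.17 with it (change -2.52, SE 0.08), Scd2 fell by 2.41, and Dhcr7, the last enzyme before cholesterol, by 1.92. Idi1, an isomerase of the same pathway, was the gene that rose (1.89, SE 0.16, adjusted p = 5.8e-09). Responses were lower at 450 than at 290 mOsm/L for 14 of the 23 and higher for 0. Of 11 cholesterol efflux genes and targets of the receptor LXR, 4 rose and 7 fell (median -0.47); Ch25h, the hydroxylase that makes 25-hydroxycholesterol, rose from 6.48, 6.17, 5.90 and 6.05 to 12.25, 12.25, 11.78 and 11.97, and the sterol exporter Abcg1 and the transfer protein Npc1 fell by 0.65 and 0.91.

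Growth and secretory genes mostly fell too, where over all genes 26.4% rose and 45.3% fell. Of 27 cell cycle and replication genes 6 rose and 19 fell (median -0.55), with Ccna2, Bub1 and Top2a lower by 1.76, 1.66 and 1.54, while Ccnd2, cyclin D2, a target of mitogens and cytokines, rose by 4.81 (SE 0.09, adjusted p = 5.7e-18). The falls of Ccna2 and Top2a exceeded those at 290 mOsm/L by 0.73 and 0.75. Of 20 ribosome biogenesis genes 1 rose and 17 fell (median -0.60), among them Myc, the factor that drives them, from 8.72, 8.73, 8.71 and 8.63 to 7.15, 7.09, 7.60 and 7.48. Chaperones of the endoplasmic reticulum and targets of Xbp1 fell in 17 of 20 cases and rose in 0 (2 after cyclic loess), with a median of -0.42 and the largest fall in Herpud1 (-1.51). Lysosomal genes fell in 17 of 20 cases and rose in 2, or in 1 without mouse 1, 2 or 4, without 450 replicate 2 or 4 and without 450_LPS replicate 1, 2 or 3 (median -0.51); their regulator Tfeb fell by 1.26 and the proton pump subunit Atp6v0d2 by 1.24.

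Genes of osmoadaptation did not move as a group, with 6 of 15 higher and 6 lower, and their median of -0.07 became 0.07 after cyclic loess. Nfat5, the transcription factor of the osmotic response, was at 8.86, 8.72, 9.07 and 8.62 without LPS and 9.96, 9.92, 9.99 and 9.71 with it (change 1.07, SE 0.09, adjusted p = 3.4e-09), a larger rise than the 0.40 at 290 mOsm/L (difference 0.67, SE 0.13, adjusted p = 0.0007). The transporters Slc5a3 and Slc6a12, known targets of Nfat5, did not rise. Slc5a3, which imports myo-inositol, was at 9.23, 9.06, 9.60 and 9.42 without LPS and 7.48, 7.39, 7.23 and 7.46 with it, a change of -1.94 (SE 0.09, adjusted p = 1.2e-12), whereas at 290 mOsm/L it was at 6.86 and 6.74 (difference -1.82, SE 0.13, adjusted p = 2.6e-08). Slc6a12, which imports betaine, was at 12, 11.86, 11.73 and 11.98 without LPS and 11.91, 11.78, 11.83 and 11.75 with it. Its change of -0.07 did not pass the test (adjusted p = 0.37), was 0.04 after cyclic loess and passed at -0.21 after quantile normalization, while at 290 mOsm/L it rose by 1.27 from a mean of 8.51 (difference -1.35, SE 0.10, adjusted p = 6e-08). The channel Aqp9, which passes water and small solutes, rose by 1.76.

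Metal handling genes rose in 7 of 10 cases and fell in 2 (median 0.82), and the response at 450 mOsm/L was higher than at 290 mOsm/L for 6 of the 10 and lower for 2. Hamp, the iron hormone hepcidin, was at 6.13, 5.96, 5.68 and 6.50 without LPS, below the filter level, and at 10.23, 10.06, 9.78 and 9.78 with it (change 3.89, SE 0.20). At 290 mOsm/L it rose by 1.5 (difference 2.40, SE 0.29, adjusted p = 1.1e-05). The zinc importer Slc39a14 rose by 2.39 and metallothionein Mt2 by 2.60, which exceeded their changes at 290 mOsm/L by 1.61 and 0.93, and Tfrc, the transferrin receptor, fell by 1.98. Of 15 NRF2 antioxidant genes 9 rose and 4 fell (median 0.39), among them the cystine transporter Slc7a11 (1.36) and Hmox1 (0.85), haem oxygenase, which releases iron.

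Uptake receptors divided about evenly, while over all genes 26.4% rose and 45.3% fell. Of 20 endocytic, scavenger and Fc receptors 10 rose and 9 fell, with a median of 0.01 that was -0.12 after quantile normalization; Marco (2.66), Clec4e (2.32) and the high-affinity Fc receptor Fcgr1 (2.00) rose, and Clec4a2 and the mannose receptor Mrc1 fell by 1.97 and 0.88. Other Toll-like receptors rose in 5 of 7 cases and fell in 2 (median 0.90): Tlr3, which senses double-stranded RNA, rose by 2.91 and Tlr1 by 1.76, and Tlr9 rose by 0.90 at 450 against 1.88 at 290 mOsm/L (difference -0.99, SE 0.12, adjusted p = 1.3e-05). Of 22 apoptosis and inflammasome genes 16 rose and 3 fell (median 0.65), led by Casp4 (3.56), the mouse caspase-11 that senses LPS in the cytosol, the caspase-8 inhibitor Cflar (2.71) and Mlkl (2.67), which executes necroptosis. Of 19 dendritic and myeloid lineage factors 14 rose and 2 fell (median 0.50); Nr4a3 rose by 2.95 and Tcf4 by 1.73, and Cebpa, a factor of myeloid precursors, fell from 9.34, 9.34, 9.43 and 9.39 to 7.26, 7.40, 7.43 and 7.52.

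Across all 10236 genes the LPS changes at 450 and 290 mOsm/L had a Pearson correlation of 0.92 and a Spearman correlation of 0.89, as a description across genes of cultures from the same mice. Of the called genes, 2189 rose and 4135 fell at both osmolarities, and 140 had opposite called directions, 88 of them higher at 450 and lower at 290 mOsm/L. Of the 767 genes that rose at least 2-fold at 450 mOsm/L, 231 rose more than at 290 mOsm/L and 161 less, and of the 617 that fell at least 2-fold, 207 fell more and 51 less. Picking genes by a large change at 450 mOsm/L itself favours larger changes there, so the excess of larger changes is a description only. Over all genes 1097 responses were higher and 1064 lower. Among the 161, 147 had a higher mean level at 450 than at 290 mOsm/L without LPS (median difference 0.47). Among the 231, 161 were lower without LPS (median difference -0.26) and 192 were higher with LPS (0.44). These counts are less firm than those for LPS itself: without mouse 2 the response was higher at 450 mOsm/L for 658 genes in place of 1097, and without mouse 1 it was lower for 697 in place of 1064.

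**Figure D4:**
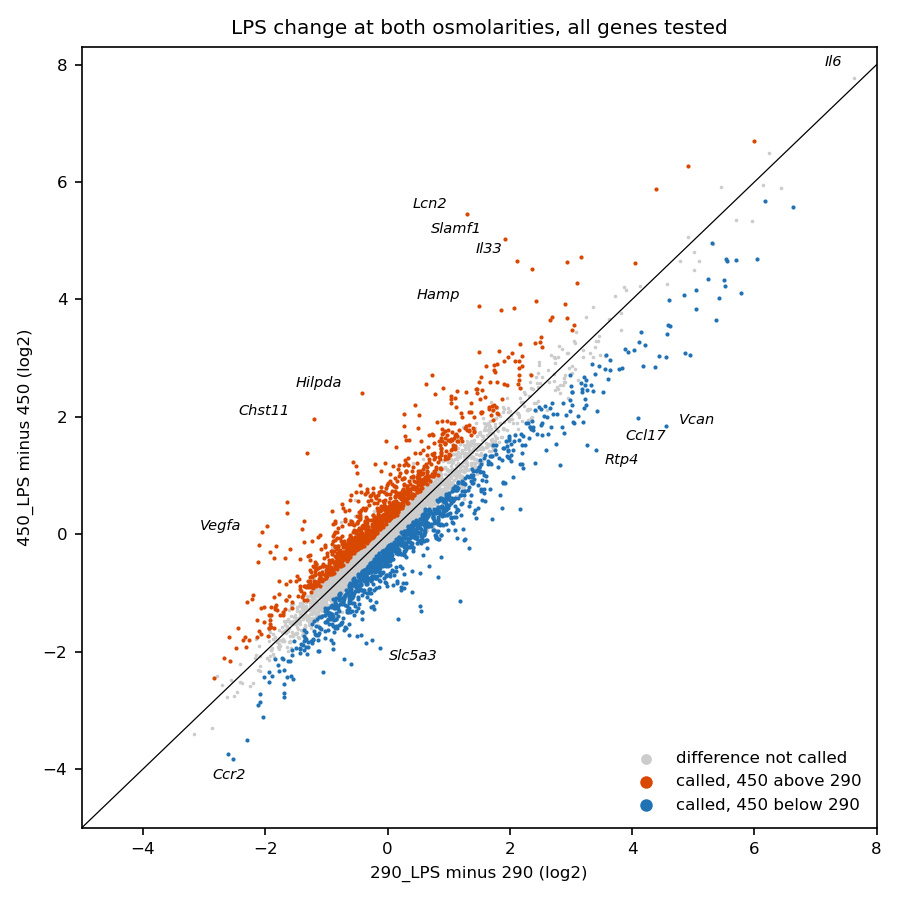
LPS change of each of 10236 genes at 290 mOsm/L (x axis, log2 of 290_LPS minus 290) and at 450 mOsm/L (y axis, log2 of 450_LPS minus 450); the line marks equal changes. Orange genes (1097) had a higher and blue genes (1064) a lower response at 450 mOsm/L at an adjusted p under 0.05 (limma), grey genes did not pass, and named genes are among those with the largest changes or differences.

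The largest differences on each side were single genes of varied function. Lcn2, the iron-binding protein lipocalin-2 of neutrophils and activated myeloid cells, was at 8.09, 8.18, 8.22 and 7.34 in the 450 arrays and 13.48, 13.35, 13.39 and 13.42 in the 450_LPS arrays, a change of 5.45 (SE 0.15). At 290 mOsm/L it started at a mean of 12.27 and reached 13.56, so the difference was 4.16 (SE 0.21, adjusted p = 4.8e-10), and the levels with LPS lay close to each other and near the top of the range. Chst11, a chondroitin sulfotransferase, rose by 1.96 at 450 and fell by 1.21 at 290 mOsm/L (difference 3.16, SE 0.16), and Gpr183, the receptor for the oxysterol made from the product of Ch25h, rose by 1.38 and fell by 1.31 (difference 2.70, SE 0.18). F3, tissue factor, rose by 0.55 at 450 and fell by 1.64 at 290 mOsm/L, but was below the filter level in all 450 arrays (5.90 to 6.15) and all 450_LPS arrays (6.39 to 6.67). On the other side Vcan, the matrix proteoglycan versican, rose by 1.84 from 10.25, 9.97, 9.62 and 9.46 to 11.81, 11.82, 11.52 and 11.50. Its change at 290 mOsm/L was 4.56, from a mean of 7.10 to 11.66, and the difference was -2.72 (SE 0.20, adjusted p = 3.1e-08). Ifitm6 fell by 1.13 at 450 and rose by 1.18 at 290 mOsm/L, and the acute-phase gene Saa3 and the complement factor Cfb rose by 3.05 and 3.09 against 4.96 and 4.87.

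Markers of other cells were followed through the same comparison. Of 15 neutrophil markers tested 9 rose and 2 fell, and their summed level, the log2 of the summed linear values over 16 measured markers, was 12.50 to 12.68 in the 450 arrays and 13.95 to 14.03 in the 450_LPS arrays, with 9 of the 16 below the filter level in every 450 array. Without Lcn2 the sum was 12.46 to 12.61 and then 12.37 to 12.56, and Mmp8, another member, fell from a mean of 12.12 to 11.32; here and in the other lists the member left out is the one whose linear level changed most, chosen after its values were seen. The neutrophil sum was higher at 290 mOsm/L, 14.76 to 15.16 in the 290 arrays and 15.18 to 15.49 in the 290_LPS arrays. Without Lcn2 it was 14.52 to 14.89 and 14.68 to 15.02 there. The mast cell and basophil sum was higher in group 290 too, 10.26 to 10.97. The plasmacytoid dendritic cell sum was lower there, 11.78 to 11.94. The cultures compared across osmolarities thus differed in these markers before LPS. The part of such cells in the response differences, and of neutrophils in the result for Lcn2, was not tested. At 450 mOsm/L, beside Lcn2, S100a8 rose from a mean of 7.37 to 8.75, Ngp from 6.27 to 7.21 and Ly6g from 4.87 to 5.60, the last below the filter level in both groups, and Retnlg, Mpo, Prtn3 and Cxcr2 did not pass the test. Of 14 macrophage markers 7 rose and 7 fell (summed level 15.32 to 15.39, then 15.14 to 15.26), of 12 dendritic cell markers 3 rose and 6 fell (15.59 to 15.67, then 15.55 to 15.61), and of 7 monocyte markers, Ccr2 and Vcan among them, 3 rose and 2 fell (11.83 to 12.53, then 12.11 to 12.42, and without Ccr2 10.81 to 11.34, then 12.05 to 12.36). Of 7 plasmacytoid dendritic cell markers 5 rose, and the summed level went from at most 12.55 to at least 14.28 (without Irf7, from at most 12.36 to at least 13.60); these were Irf7, Bst2, Tcf4, Tlr9 and Ly6d, of which other lists here also hold the first 4, and Siglech, a defining marker, was below the filter. Mast cell and basophil markers rose in 2 of 6 cases, with summed levels of 9.48 to 9.61 and then 10.69 to 10.91 (without Hdc, 9.26 to 9.42 and then 9.54 to 9.61), and the histamine enzyme Hdc moved most (6.57 to 10.02), with Fcer1a, Ms4a2 and Mcpt4 below the filter. Of 3 T-cell markers 2 fell, Cd28 and Cd4, while Cd3d, Cd3g and Cd8a did not pass the filter, and of 2 B-cell markers 1 fell. No natural killer or erythroid marker passed the filter, and of 5 stromal markers 1 rose and 1 fell.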

How the data were processed

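RNA of 16 cultures, 4 groups of 4, was measured on Affymetrix Gene ST microarrays. The values are log2 expression values deposited by the authors in the series' value table, made with RMA in the oligo package per the submitters' processing notes. For versions and build: not given in the sources used here. The RMA method corrects background, quantile-normalizes and summarises probes, and it tends to understate large folds. Of 22549 probe sets, 20646 had 1 gene symbol, 551 several and 1352 none in the platform annotation; 20596 matched RefSeq by Entrez ID and 0 symbols changed.

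Probe sets above 6.83 in 4 or more arrays were kept, and a gene was represented by its kept probe set with the highest mean, giving 10236 genes. Group means were fitted to all 16 arrays with limma 3.58.1 in R 4.3.3 (12 residual degrees of freedom, moderated, two-sided), with contrasts for LPS at each osmolarity and for their difference, and p-values were adjusted over all 10236 genes by Benjamini-Hochberg; the scripts were tested on simulated data. The number of arrays limits the precision, and p-values measure the spread between cultures of 4 mice. Groups share mice by the labels' mouse numbers, so the replicate numbers pair the arrays; the correlation of deviations from the group means was 0.10 to 0.40 for the 4 mice and -0.41 to 0.39 between different mice. The mouse was a block in an alternative.

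Genes named were the 15 largest rises and falls and the 10 highest and lowest response differences among called genes with 1 sign in all 4 mice, up to 4 members of each list with the largest called change, and a fixed set of 28 genes of LPS signalling, cytokines, metabolism and osmoadaptation; Ifit3 and marker genes were added. The comparison, the 34 gene lists, the 11 marker lists and the motifs were chosen with earlier results of these data known. Promoters were read from RefSeq's table (GRCm38.p6). Figures were drawn with matplotlib 3.10.9 in Python 3.11.15. Scan dates and hybridisation batches are not given in the labels and were not tested.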

Additional observations from a re-analysis of the deposited data

Results flagged for a closer look

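Of 352 sets of 4 arrays checked among the 176 genes named, 14 held an array that stood apart by the gap to its nearest neighbour relative to the range (Dixon's test at 95%, which chance passes in about 1 in 20 sets). In 450 replicate 1 the level was 10.13 for Psmb10. In 450 replicate 2 the level was 8.90 for Tnfaip3. In 450 replicate 3 the level was 8.64 for Psmb9. In 450 replicate 4 the level was 9.80 for Jak2, 7.34 for Lcn2, 11.72 for Npc1 and 10.67 for Rcbtb2. In 450_LPS replicate 2 the level was 7.88 for Otulinl. In 450_LPS replicate 3 the level was 12.68 for Ifit2, 10.82 for Npc1, 13.55 for Saa3 and 11.26 for Socs3. In 450_LPS replicate 4 the level was 4.45 for Clec4b1 and 8.85 for Egr2. Array 450 replicate 4, which had the lowest median correlation with its group, held 4 of the 14, and 450_LPS replicate 3 another 4.

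A difference between the LPS responses at 450 and 290 mOsm/L, the change at 450 minus the change at 290 mOsm/L, passed limma's test for 95 of the 176 genes named, and 46 of these differed by at least 2-fold. Of those higher at 450 mOsm/L, the difference was 4.16 for Lcn2, 3.16 for Chst11, 3.09 for Slamf1, 2.82 for Hilpda, 2.70 for Gpr183, 2.53 for Il33 and 2.40 for Hamp. It was 2.19 for F3, 2.16 for Ccl2, 2.11 for Vegfa, 1.75 for Bnip3, 1.70 for Ccl7, 1.69 for Slc2a1 and 1.61 for Slc39a14. The smaller ones were 1.58 for Il1rn, 1.49 for Il10, 1.30 for Tnfaip3, 1.26 for Egln3, 1.08 for Cxcl2, 1.06 for Cd80 and 1.00 for Ptges. On the other side, differences were -2.72 for Vcan, -2.32 for Ifitm6, -2.11 for Ccl17, -1.97 for Rtp4, -1.90 for Saa3, -1.82 for Slc5a3, -1.78 for Cfb and -1.76 for Cdc42ep3. Further ones were -1.74 for Gbp2b, -1.74 for Smpdl3b, -1.36 for Cd69, -1.35 for Slc6a12, -1.30 for Ccr2, -1.29 for Ifit2, -1.28 for Alox5 and -1.21 for Cd28. The last were -1.16 for Acod1, -1.13 for Tmem154, -1.09 for Cd93, -1.08 for Rgs2, -1.06 for Irf7, -1.06 for Iigp1, -1.05 for Nlrc5, -1.03 for Cxcl9 and -1.02 for Otulinl. The difference for Cxcl2 missed the threshold without mouse 1 (adjusted p = 0.060) or mouse 2 (adjusted p = 0.086). Many of these genes started from different levels before LPS: Lcn2 had a mean of 12.27 in group 290 and 7.96 in group 450, and Vcan 7.10 and 9.83. Cd28 started at means of 8.46 in 290 and 9.78 in 450. It ended below the filter level in both LPS groups, at 6.17 in 290_LPS and 6.28 in 450_LPS.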

How the results depend on the processing

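The counts of genes higher and lower with LPS at 450 mOsm/L stayed within 1.5 times the reported ones under all 25 alternatives, which varied the block, the arrays fitted, the filter, the choice of probe set, the normalization, the variance model and the arrays left out. With the replicate block, the mouse as a fixed term, 2775 genes were higher and 4693 lower with LPS, and the response was higher at 450 than at 290 mOsm/L for 1198 and lower for 1161; beside the calls of Cd86, Csf1r, Nlrp3 and Tfrc, whose adjusted p for the difference became 0.035, 0.038, 0.059 and 0.051, the block changed no call of a gene named. Leaving out 1 mouse or 1 array of the 450 groups gave 658 (without mouse 2) to 1117 genes with a higher response and 697 (without mouse 1) to 1149 with a lower one. Of 176 LPS changes of named genes, 3 changed sign or call: Ldha was -0.0288 after quantile normalization, Slc6a12 0.0412 after cyclic loess, and Vegfa -0.0429 to 0.233 when a mouse or array was left out. Of 106 response differences 26 changed sign or call under some alternative, among them Il1b, at -0.0603 to 0.403 with a mouse or array left out. The median changed sign for 3 of 34 lists: AP-1, ATF and immediate-early factors (-0.00532 to 0.0537 with a mouse or array left out), endocytic, scavenger and Fc receptors (-0.0210 to 0.0402 likewise, -0.0426 with no filter, -0.123 after quantile normalization) and osmoadaptation (0.0704 after cyclic loess, 0.148 with every probe set). Beyond the settings themselves, the cause was not tested. Signal limits low genes: 146 of the 767 genes that rose at least 2-fold had a mean below the filter level without LPS, and 127 of the 617 that fell had one below it with LPS.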

Other observations

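The levels behind the response differences are given for gene lists not described above, as a description of genes picked by that difference. For the 14 sterol and fatty acid genes whose response was lower at 450 mOsm/L, 11 were higher at 450 than at 290 mOsm/L without LPS (median difference 0.31) and 12 were lower with LPS (-0.35). The 6 cell cycle genes with a lower response had medians of 0.32 without LPS and -0.39 with it. The 6 metal handling genes with a higher response had a median difference of 0.17 without LPS and 1.29 with LPS, and all 6 were higher at 450 mOsm/L with LPS. The 4 osmoadaptation genes with a lower response were higher at 450 mOsm/L in both states, by a median of 2.89 without LPS and 1.34 with it. Of the 207 genes that fell at least 2-fold and fell further at 450 mOsm/L, 150 were higher there without LPS and 176 were lower there with LPS.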
